A study of Mus musculus with 18 samples.

Results

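The 10 genes described here encode the enzymes that modify and cross-link collagen: the lysyl oxidases Lox, Loxl1, Loxl2, Loxl3 and Loxl4, the lysyl hydroxylases Plod1, Plod2 and Plod3, and the catalytic subunits of prolyl 4-hydroxylase, P4ha1 and P4ha2. They were taken by name from a table of 24445 gene symbols, each represented by its transcript with the highest mean level. All 10 were among the 12599 genes that reached 1 FPKM in at least 2 libraries. FPKM is a read count scaled to exon length and to the size of the library.

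Collagen chains are hydroxylated in the endoplasmic reticulum before they fold into a triple helix. Prolyl 4-hydroxylases stabilise the helix, and lysyl hydroxylases prepare lysines for glycosylation and for cross-links. Outside the cell, lysyl oxidases oxidise lysines and hydroxylysines of collagen and elastin, which then form the covalent cross-links that make tendon, skin and vessel wall stiff. Fibroblasts are a main source of these enzymes in connective tissue.

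RNA was sequenced from primary tail-tip fibroblasts of 2-month-old mice at passage 5. The series concerns CRISPR/Cas9 treatment of Hutchinson-Gilford progeria syndrome, in which children age early. The gene behind it, Lmna, encodes lamins A and C of the nuclear lamina, and its progeria allele is written Pro in the labels. The genotypes were Pro/Pro;Cas9/+, which is homozygous for Pro and carries a Cas9 transgene (the homozygous cells below), Pro/+; +/+, which is heterozygous for Pro without Cas9 (the heterozygous cells below) and served as a negative control, and +/+;Cas9/+, which has Cas9 and no Pro allele (the wild-type cells below). Cells of each mouse received 1 of 3 guide RNAs by lentivirus: gLmna-2 or gLmna-1, which target Lmna, or gMock, which has no match in the genome. Every culture, gMock included, was therefore transduced with virus and its mCherry reporter in 4 µg/ml polybrene. More than 80% of cells were mCherry-positive, and cells were neither selected nor sorted. There were 2 mice per genotype, called replicate 1 and replicate 2, and 18 libraries in 9 groups of 2. Whether Pro/+; +/+ replicate 2 came from 1 animal or from pooled animals is not given in the sources used here. The promoter that drives Cas9 is not given in the sources used here. No mouse was heterozygous for Pro with Cas9 or free of both, so the effects of Pro copy number and of Cas9 cannot be told apart between Pro/+; +/+ and the other genotypes.

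The libraries held 22424409 to 42622048 reads, recovered from the steps of the FPKM values. Lmna, read from a single transcript like every symbol, stood at 217 to 369.8 FPKM in Pro/Pro;Cas9/+, 195.7 to 291 in Pro/+; +/+ and 272 to 381.4 in +/+;Cas9/+ libraries. Neither guide changed the level of that transcript past the threshold in any genotype. Whether the gene was edited is not shown by these levels. Of 12 fibroblast markers, at most 1 was under 1 FPKM in any library, and their summed level was 9921 to 13920 FPKM. Krt5, Krt14, Krt1, Epcam and Cdh1 of keratinocytes, Pecam1, Kdr, Tek and Emcn of endothelium and Myod1, Myog, Pax7 and Myf5 of muscle were under 1 FPKM in every library. Not every marker of other lineages was that low. Over the 18 libraries, muscle markers with Acta1 and Des included summed to 7.04 to 66.4 FPKM. Cartilage and bone markers summed to 22.3 to 497 FPKM, and adipocyte markers to 20.6 to 63.4 FPKM. Some Schwann and pigment cell markers were above 1 FPKM as well. Macrophage markers were present: their summed level was 563 to 1849 FPKM in Pro/Pro;Cas9/+, 87.7 to 721 in Pro/+; +/+ and 83.1 to 493 in +/+;Cas9/+ libraries. In bulk RNA, fewer cells of a type and less RNA per cell cannot be told apart.

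Some of these genes make proteins that differ by 1 exon, and the table keeps the parts of a transcript apart, so that the exons could be read separately. The exons that the values below refer to are printed from the GENCODE vM21 transcripts of mm10, on the plus strand. The extra exon of the long form of Plod2 lies at chr9:92601985-92602047, is exon 14 of 20 in its transcript, and is printed in capitals with the 10 neighbouring bases of the spliced transcript on either side.
Plod2 extra exon: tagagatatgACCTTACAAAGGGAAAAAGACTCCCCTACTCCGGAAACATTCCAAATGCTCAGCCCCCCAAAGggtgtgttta

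P4ha1 and P4ha2 each have a pair of exons, named A and B here, of which an annotated transcript holds 1. In these lines capitals mark the bases that differ within the pair in a global alignment. The P4ha1 exons (A at chr10:59354340-59354410, B at chr10:59355350-59355420) are both 71 bases long and share 45 of them. The P4ha2 exons (A at chr11:54126238-54126297, B at chr11:54126346-54126411) have 60 and 66 bases and share 36.
P4ha1 exon A: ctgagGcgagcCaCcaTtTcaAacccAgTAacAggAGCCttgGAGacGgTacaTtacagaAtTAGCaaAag
P4ha1 exon B: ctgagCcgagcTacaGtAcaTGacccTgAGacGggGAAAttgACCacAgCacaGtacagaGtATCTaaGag
P4ha2 exon A: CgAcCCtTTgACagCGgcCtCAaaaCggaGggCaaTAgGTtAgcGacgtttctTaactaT
P4ha2 exon B: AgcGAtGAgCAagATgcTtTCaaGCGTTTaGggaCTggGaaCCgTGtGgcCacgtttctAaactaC

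Lox was by far the most abundant of the 10. Its mean over the 18 libraries was 1919 FPKM, rank 11 among the 12599 genes, and it was 5.87 to 18.7 times the next highest member in the same library. Plod3, Loxl2, Loxl3, P4ha2 and P4ha1 followed with means of 129, 124, 111, 109 and 102 FPKM. Loxl1, Plod2 and Plod1 had means of 85.4, 71.4 and 69.0 FPKM, and Loxl4 was lowest at 15.1 FPKM. Each of the members between Plod3 and Plod1 in this order overlaps with its neighbours in range, so that neighbours do not differ beyond the spread over libraries. Loxl4 reached at most 31.6 FPKM, which is above the lowest Plod2 library at 21.7 FPKM but below the lowest Plod1 library at 43.8 FPKM. The least covered member in any library, Loxl4, had 1448 reads. Plod3 was the steadiest, with a highest library 1.39 times its lowest, and Plod2 the most variable at 5.36 times.

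**Figure D1:**
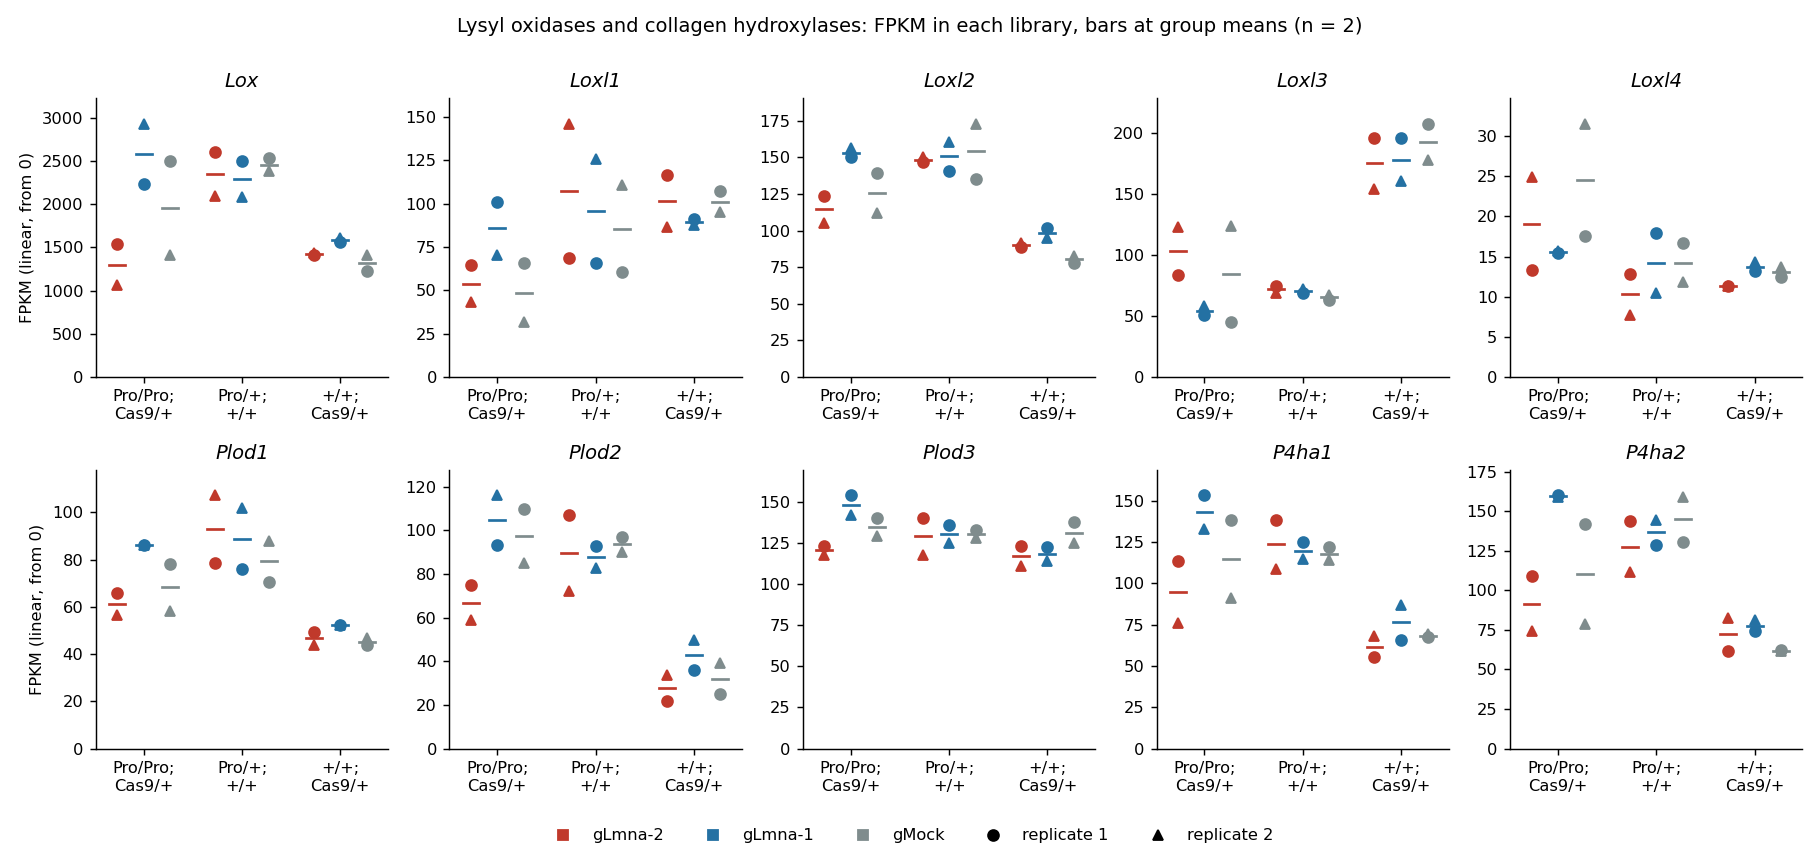
FPKM of the 10 members in each library, on linear axes from 0, by genotype and guide (gLmna-2 red, gLmna-1 blue, gMock grey). Circles are replicate 1, triangles replicate 2 and bars group means of 2 mice. Plod2 lies between 58.8 and 116 FPKM in the 12 libraries with a Pro allele and between 21.7 and 49.7 in +/+;Cas9/+, and Loxl3 shows the opposite order.

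The 2 Lmna guides were compared in the homozygous cells, Pro/Pro;Cas9/+. Under gLmna-2, 8 members were lower than under gLmna-1 and 1, Loxl3, was higher, so that 9 of 10 passed an adjusted p of 0.05 (limma with the mouse as a block, Benjamini-Hochberg over all 12599 genes). Of all 12599 genes 9.95% passed, made up of 3.02% that were lower and 6.92% that were higher. The members' median log2 change was -0.55, beside 0.06 over all genes. Quantile normalization changed the split of all calls to 54.4% higher, against 69.6% in the values as deposited, and left 4 of the 9 members past the threshold (8.88% of all genes), Loxl1, Plod1 and P4ha1 lower and Loxl3 higher. The 2 groups of 2 libraries did not overlap in these 9 members, as in 41.6% of all genes, 14.8% with lower and 26.9% with higher values under gLmna-2.

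Among the lysyl oxidases, Lox (chr18:52516060-52529867), which cross-links fibrillar collagen and elastin, had 1540.2 and 1060.4 FPKM under gLmna-2 in replicates 1 and 2, against 2239 and 2936 under gLmna-1. Lox was lower in both mice, more so in replicate 2, and the log2 change was -1.004 ± 0.24 (SE, adjusted p = 0.03). Loxl1 (chr9:58287723-58313212), needed in mice to maintain elastic fibres, had 64.3 and 43.2 FPKM under gLmna-2, against 100.9 and 70.3 under gLmna-1. It was lower in both mice by similar amounts, and its change was -0.67 ± 0.13 (adjusted p = 0.016). Loxl2 (chr14:69609476-69695834), a member with scavenger receptor domains that also acts on basement membrane collagen, had 124 and 105 FPKM under gLmna-2, against 149.9 and 156 under gLmna-1. Its change was -0.42 ± 0.11 (adjusted p = 0.039), made up of -0.27 in replicate 1 and -0.57 in replicate 2.

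Loxl3 (chr6:83034224-83052564), whose loss in mice disturbs palate and spine, went the other way. It had 83.5 and 123 FPKM under gLmna-2, against 50.6 and 57.8 under gLmna-1, without overlap. Its change was 0.90 ± 0.22 (adjusted p = 0.039). Its transcript shares 535 bases with Htra2 on the opposite strand, and strand was not given in the sources used here. From its parts without that overlap the change was 0.98 (adjusted p = 0.025), an alternative chosen after seeing the data. Loxl3 was not alone in this. Plod3 shares 529 bases with Znhit1 on the opposite strand, Plod2 346 with Gm38391 and Loxl2 301 with Gm27177. Shorter overlaps were found for Loxl4 (65 bases) and Lox (30 bases). Loxl4 (chr19:42592279-42612806), the least abundant oxidase, had 13.3 and 24.9 FPKM under gLmna-2, against 15.4 and 15.6 under gLmna-1. The mice differed in direction, and the change of 0.22 ± 0.17 did not pass (adjusted p = 0.49).

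All 3 lysyl hydroxylases were lower under gLmna-2. Plod1 (chr4:147909753-147936776), which hydroxylates lysines in the helical part of collagen, had 65.8 and 56.8 FPKM under gLmna-2, against 86.4 and 86.1 under gLmna-1. That was a change of -0.49 ± 0.10 (adjusted p = 0.019). Plod2 (chr9:92542223-92608427), which hydroxylates lysines of the telopeptides, the ends of the chains where cross-links start, had 74.8 and 58.8 FPKM under gLmna-2, against 93.2 and 116 under gLmna-1. The replicates did not overlap, and the change was -0.64 ± 0.17 (adjusted p = 0.041). Plod3 (chr5:136987019-136996646), which also carries the glycosyltransferase activities that add sugars to hydroxylysine, had 123 and 118 FPKM under gLmna-2, against 154 and 142 under gLmna-1. Its change was the smallest of those that passed, at -0.29 ± 0.07 (adjusted p = 0.03), with nearly the same size in both mice.

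Both prolyl 4-hydroxylase subunits were lower as well. P4ha1 (chr10:59323296-59373304) had 114 and 76.2 FPKM under gLmna-2, against 153.5 and 133 under gLmna-1. Its change was -0.61 ± 0.12 with the smallest adjusted p of the 10 (0.015). P4ha2 (chr11:54100924-54131667), its paralog in the same kind of enzyme complex, had 109 and 74.1 FPKM under gLmna-2, against 160.3 and 159 under gLmna-1. Here the change was -0.82 ± 0.20 (adjusted p = 0.036). In 7 of the 8 members that were lower, the difference was larger in replicate 2 than in replicate 1, and Plod3 was the exception.

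**Figure D2:**
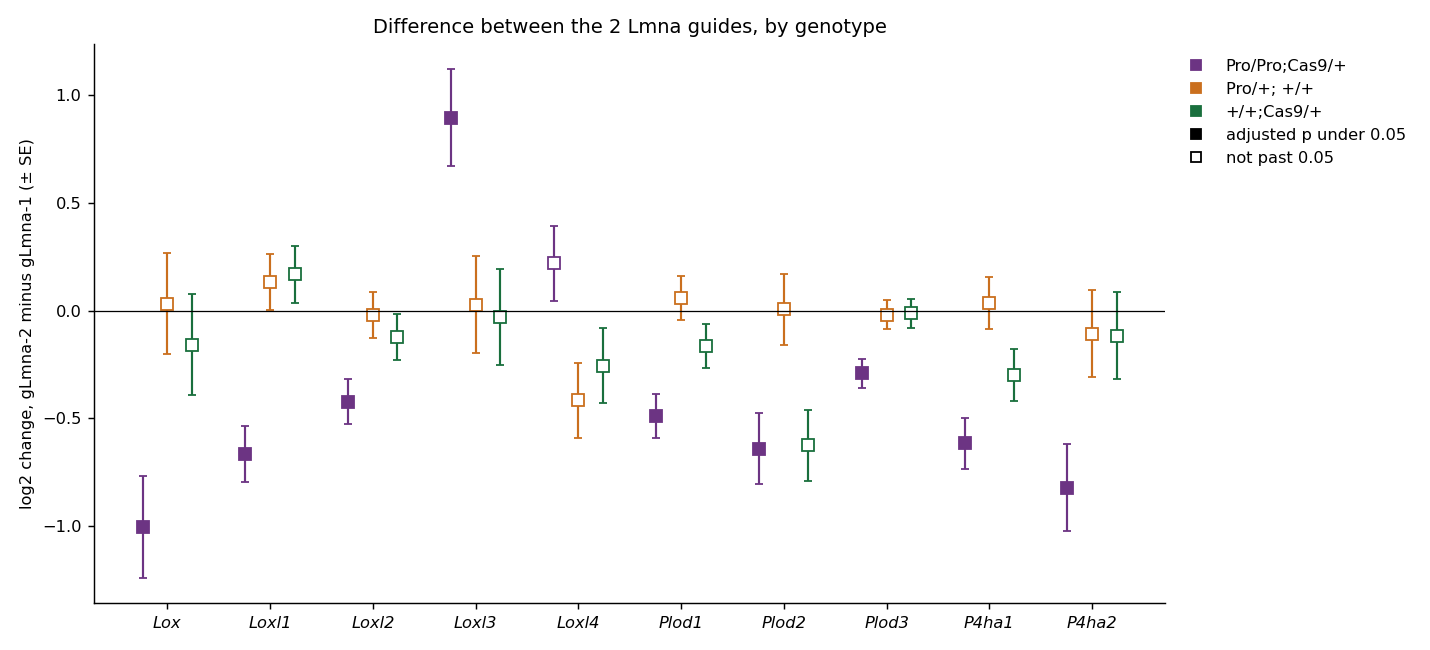
Log2 change of each member, gLmna-2 minus gLmna-1, with its standard error, in Pro/Pro;Cas9/+ (purple), Pro/+; +/+ (orange) and +/+;Cas9/+ cells (green). The standard error of a member comes from a spread shared by all genotypes. Filled squares passed an adjusted p of 0.05. All 9 filled squares belong to homozygous cells, 8 of them below 0.

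These calls depended on single libraries. With 1 library left out, that guide was read in 1 homozygous mouse only. Without the gLmna-2 library of replicate 1 or that of replicate 2, none of the 10 members passed, beside 1.11% and 1.89% of all genes. Without the gLmna-1 library of replicate 2, Plod3 alone passed, beside 9.37% of all genes. Without the gLmna-1 library of replicate 1 all 10 did, beside 20.9%. Without the mouse as a block no member passed, beside 0.468% of all genes, and with only the 6 homozygous libraries in the fit no gene did. Macrophage markers were summed at 1849 and 939 FPKM under gLmna-2, against 563 and 1414 under gLmna-1. None of these 14 markers passed (limma), although 13 had a positive log2 change. Their sums are high in the gLmna-2 library of replicate 1 and in the gLmna-1 library of replicate 2. Cartilage and bone markers summed to 43.8 and 286 FPKM under gLmna-2, against 223 and 497 under gLmna-1, and 3 of 6 tested ones, Col2a1, Ibsp and Comp, were lower past the threshold. Fibroblast markers moved both ways, with Prrx1 (1.30) and Thy1 (1.08) higher and Col1a1 (-0.80) lower of 12. Of the other marker lists, Acta1 and Des of muscle were higher and Fabp4 of adipocytes lower. Des was near the floor, at 1.00 and 1.58 FPKM under gLmna-2, against 0.354 and 0.150 under gLmna-1. Of Schwann and pigment cell markers 0 of 4 tested passed, and of keratinocyte markers 0 of 1. No endothelial marker was abundant enough to test. The part of these cells in the members' changes was not tested.

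In the other genotypes the same guide comparison called no member by limma, with adjusted p, and none by limma voom on the recovered reads. The background was 0% in each. In heterozygous cells, without Cas9, the changes ran from -0.42 to 0.13, and 1 member had an unadjusted p under 0.05, beside 2.11% of all genes. Lox, for example, had 2608 and 2097 FPKM under gLmna-2, against 2506 and 2087 under gLmna-1. In wild-type cells they ran from -0.63 to 0.17, and 2 members had an unadjusted p under 0.05, beside 8.01% of all genes. Of these Plod2 was at 21.7 and 33.7 FPKM under gLmna-2, against 35.9 and 49.7 under gLmna-1, a change of -0.63 ± 0.17 (limma, adjusted p = 0.42) that was close in size to that in homozygous cells.

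The difference in guide response between genotypes was tested as its own contrast. Against Pro/+; +/+, no member passed (limma, background 2.38%), and all 10 had an unadjusted p under 0.05, as did 17.9% of all genes. Loxl1 came nearest, with a difference of -0.80 ± 0.19 (adjusted p = 0.06), followed by P4ha1 at -0.65 ± 0.17 (adjusted p = 0.081) and Plod1 at -0.55 ± 0.14 (adjusted p = 0.082). Against +/+;Cas9/+, none passed either (background 0.0476%), and 6 had an unadjusted p under 0.05, as did 9.92% of all genes. Limma voom called none in both contrasts. With 1 library left out, the group of that library was read in 1 mouse only. Without the gLmna-1 library of homozygous replicate 1, 9 members passed against Pro/+; +/+, beside 16.3% of all genes, and 4 against +/+;Cas9/+, beside 4.35%.

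The comparison with gMock asks what the Lmna guides do relative to a guide without a target. For both guides together no member passed in Pro/Pro;Cas9/+ (limma, background 0.0794%), Pro/+; +/+ (background 0%) or +/+;Cas9/+ cells (background 0.849%). An unadjusted p under 0.05 was found for 2 members in homozygous cells (8.37% of all genes), 0 in heterozygous (3.15%) and 2 in wild-type cells (7.61%), and limma voom called none. For single guides, Loxl1 passed for gLmna-1 in homozygous cells, the 1 call among 10 members (background 0.976%, or 0.603% for higher calls). It had 100.9 and 70.3 FPKM under gLmna-1, against 65.4 and 31.7 under gMock, higher in both mice, with a change of 0.87 ± 0.13 (adjusted p = 0.03). In the same limma fit 6 members had an unadjusted p under 0.05, as did 18% of all genes. Limma voom called 1 member, and its share of all genes is not given here. With a homozygous gMock or gLmna-1 library left out, that group was read in 1 mouse only. No member passed without gMock replicate 2 or gLmna-1 replicate 2, where 0% and 0.0238% of all genes did. There were 2 calls without gMock replicate 1, beside 1.32% of all genes. Without gLmna-1 replicate 1 there were 8 calls, 6 higher and 2 lower, beside 14.1% of all genes. For gLmna-2 against gMock no member passed in homozygous cells (background 0.357%), 4 had an unadjusted p under 0.05, as did 10.1% of all genes, and limma voom called none. In wild-type cells no member passed for gLmna-2 (background 0.564%) or gLmna-1 (background 0.691%), with 1 and 2 members at an unadjusted p under 0.05, beside 7.56% and 8.61% of all genes. In heterozygous cells the background was 0% for each guide, with 1 and 0 such members, beside 4.49% and 1.37%, and limma voom called none in either genotype. The response to both guides in Pro/Pro;Cas9/+ minus that in +/+;Cas9/+ or in Pro/+; +/+ passed for no member (background 0.0476% and 0%), with 1 and 0 at an unadjusted p under 0.05, beside 3.03% and 4.15% of all genes, and none by limma voom.

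The gMock libraries of the 2 homozygous mice differed. Lox had 2498 FPKM in gMock replicate 1, near gLmna-1 of that mouse, and 1410.1 FPKM in gMock replicate 2, nearer to gLmna-2. P4ha2 had 142 FPKM in gMock replicate 1 and 79.0 in gMock replicate 2, beside 109 and 74.1 under gLmna-2 and 160.3 and 159 under gLmna-1. Loxl3 had 44.9 and 124 FPKM in the same gMock libraries, close to gLmna-1 in replicate 1 and to gLmna-2 in replicate 2. For these 3 genes the gMock level therefore resembled a different Lmna guide in each mouse. Because gLmna-2 against gMock and gLmna-1 against gMock share the gMock libraries, their values are shown side by side and not compared.

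**Figure D3:**
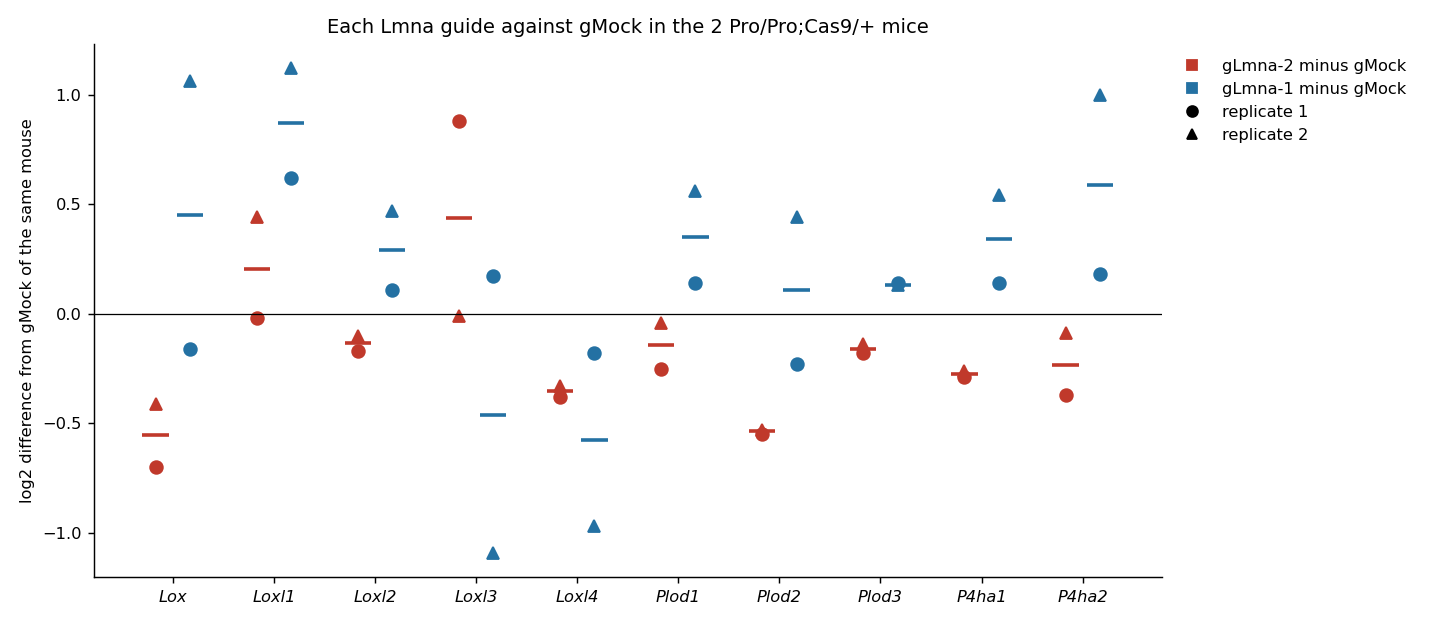
Log2 difference of each Lmna guide from the gMock library of the same homozygous mouse, gLmna-2 in red and gLmna-1 in blue. Circles are replicate 1, triangles replicate 2 and bars the mean. Lox under gLmna-1 is at -0.16 in replicate 1 and 1.06 in replicate 2, and Loxl3 at 0.17 and -1.09.

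Genotypes were compared in the 6 gMock libraries. In Pro/Pro;Cas9/+ against +/+;Cas9/+, no member passed (limma, background 0.397%), 8 had an unadjusted p under 0.05, as did 10.4% of all genes, and limma voom called none. In Pro/+; +/+ against +/+;Cas9/+, no member passed (background 0.413%), 7 had an unadjusted p under 0.05, as did 12.5% of all genes, and limma voom called none. In Pro/Pro;Cas9/+ against Pro/+; +/+, no gene of any kind passed (background 0%), and 0 members had an unadjusted p under 0.05, beside 4.34% of all genes. These fits had 3 residual degrees of freedom. The members' median log2 change was 0.60 for Pro/Pro;Cas9/+ and 0.78 for Pro/+; +/+ against +/+;Cas9/+, beside 0.003 and -0.007 over all genes, and the wild-type libraries are shared by both.

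Plod2 had the largest difference. Its gMock libraries had 109.7 and 85.1 FPKM in Pro/Pro;Cas9/+ and 97.1 and 90.3 in Pro/+; +/+, against 24.9 and 39.1 in wild-type cells. The log2 change was 1.6 ± 0.24 for homozygous cells (adjusted p = 0.076) and 1.56 ± 0.24 for Pro/+; +/+ (adjusted p = 0.082), both short of the threshold. Loxl3 had the opposite sign. Its gMock libraries had 44.9 and 124 FPKM in Pro/Pro;Cas9/+ and 62.9 and 67.6 in Pro/+; +/+, against 208 and 178 in wild-type cells. Its changes of -1.35 ± 0.44 and -1.55 ± 0.44 had adjusted p of 0.34 and 0.27. The first ran to -0.63 without Pro/Pro;Cas9/+ gMock replicate 1 and to -2.08 without gMock replicate 2 (limma, adjusted p = 0.23 and 0.053). Plod3 was nearest to 0, with changes of 0.04 ± 0.11 and -0.005 ± 0.11, the second of which changed sign under quantile normalization (0.10).

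**Figure D4:**
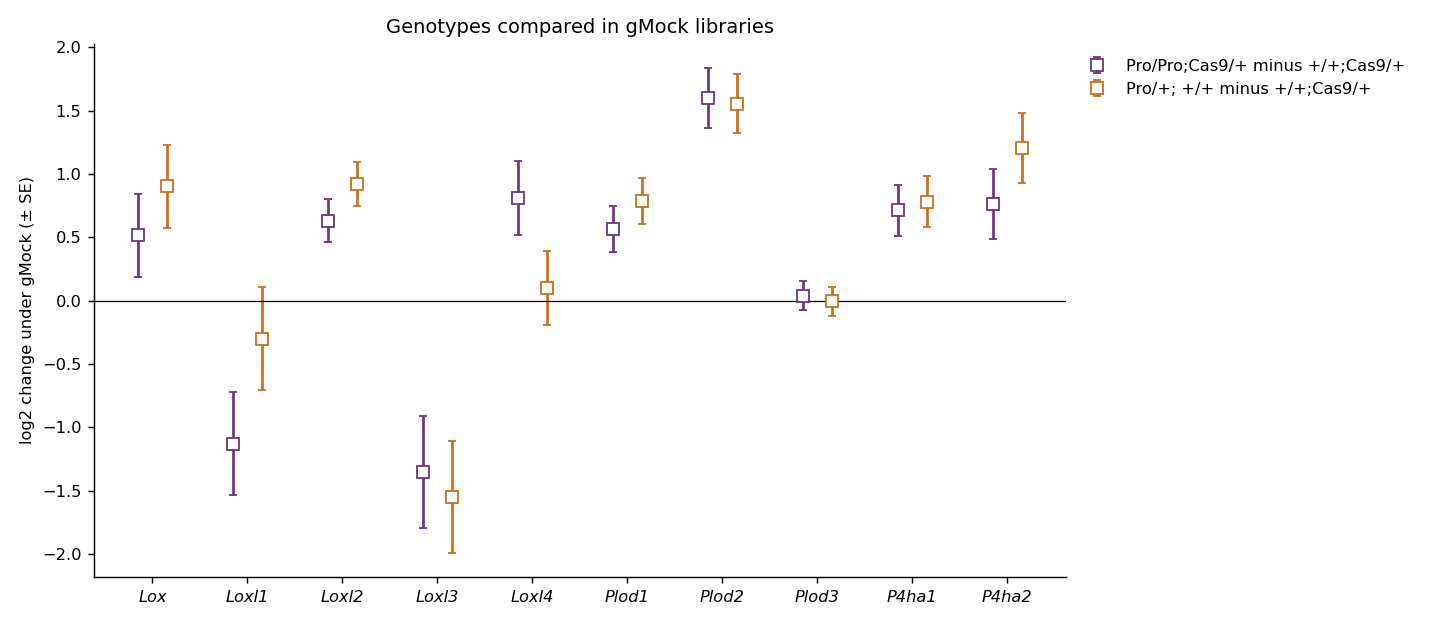
Log2 change of each member under gMock with its standard error, Pro/Pro;Cas9/+ minus +/+;Cas9/+ (purple) and Pro/+; +/+ minus +/+;Cas9/+ (orange). Open squares did not pass an adjusted p of 0.05, which holds for all 20 values. Plod2 is highest at 1.6 and 1.56 and Loxl3 lowest at -1.35 and -1.55.

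Across all 3 guides the ranges of 4 members did not overlap between the 12 libraries with a Pro allele and the 6 of +/+;Cas9/+, which held for 3.29% of all genes, 1.17% higher and 2.12% lower. This view was chosen after seeing the data, and libraries of 1 mouse are not independent. Plod2 ranged from 58.8 to 116 FPKM with a Pro allele, against 21.7 to 49.7 without. Loxl2 ranged from 105 to 173 FPKM, against 78.1 to 102, and Plod1 from 56.8 to 107, against 43.8 to 52.3. Loxl3 was the 1 member that lay lower with a Pro allele, at 44.9 to 124 FPKM against 154 to 208. The same 4 members did not overlap when Pro/Pro;Cas9/+ alone was set against +/+;Cas9/+ (background 6.68%, 3.09% higher and 3.6% lower). In Pro/+; +/+ alone, 7 members did not overlap with +/+;Cas9/+ (background 15.9%, 5.76% higher and 10.1% lower), with Lox, P4ha1 and P4ha2 added on the high side. When the 3 libraries of each mouse were averaged, Loxl2 and Plod2 passed in Pro/+; +/+ against +/+;Cas9/+ with log2 changes of 0.75 (limma, adjusted p = 0.048) and 1.42 (adjusted p = 0.049), beside 1.45% of all genes in that fit. No member passed in Pro/Pro;Cas9/+ against +/+;Cas9/+, beside 0.341%. Beside these levels, under gMock all 14 macrophage markers had a positive log2 change in Pro/Pro;Cas9/+ against +/+;Cas9/+ (median 2.02), and all 6 tested cartilage and bone markers likewise (median 1.68). No marker of either list passed there, and the fibroblast markers Pdgfra (-1.16) and Thy1 (-3.26) were lower past the threshold, with a median of -0.28 over 12. In Pro/+; +/+ against +/+;Cas9/+ all 6 cartilage and bone markers were positive as well (median 1.099), and Alpl of bone passed at 3.22 (limma, adjusted p = 0.029). Acta1 of muscle was lower there at -1.99 (adjusted p = 0.029), and 12 of 14 macrophage markers were positive with none past the threshold (median 0.22). The part of any of these in the members' levels was not tested.

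The alternative exons were described without a test. The extra exon of Plod2 was read at 0.911 to 1.36 times the mean of the parts shared by all Plod2 transcripts, with a mean of 1.205 ± 0.11 (SD over 18 libraries). Against the parts on either side of it alone the ratio was 0.651 to 1.03, with a mean of 0.880, so that its side of 1 depends on the parts it is set against. The ratio to shared parts was 1.17 in homozygous, 1.19 in heterozygous and 1.25 in wild-type libraries, and the ranges overlap. Exon A of P4ha1 took 38.3% to 48.5% of the pair per base, mean 44.2% ± 3.4, with no separation by genotype or guide. In homozygous gMock replicate 1, A was at 0.984 and B at 1.17 times the mean of the shared P4ha1 parts. Together they exceed the shared parts, although an annotated transcript holds only 1 of them. The percentages are therefore shares of the pair and not measured shares of transcripts.

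Exon A of P4ha2 took a larger share of its pair than in P4ha1. Here too A and B together exceeded the shared parts, at 1.30 and 0.316 times their mean in homozygous gMock replicate 1. The share of exon A is given below. That share was 75.0% to 80.4% in Pro/Pro;Cas9/+ and 73.8% to 79.3% in Pro/+; +/+, against 81.0% to 82.4% in +/+;Cas9/+ libraries. All 6 wild-type libraries lay above the 12 others, at low depth: exon B held 24 to 147 reads per library. Libraries of the same mouse are not independent. The share of other exon pairs that split in this way was not taken, so the split is a description only. The nearest libraries cannot be told apart by their reads. Of the reads on the pair, 78.9% were on exon A in homozygous gMock replicate 1 (Wilson 95% interval 75.3% to 82.0%), against 79.5% in wild-type gMock replicate 1 (71.3% to 85.8%), and such intervals cover counting error only.

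**Figure D5:**
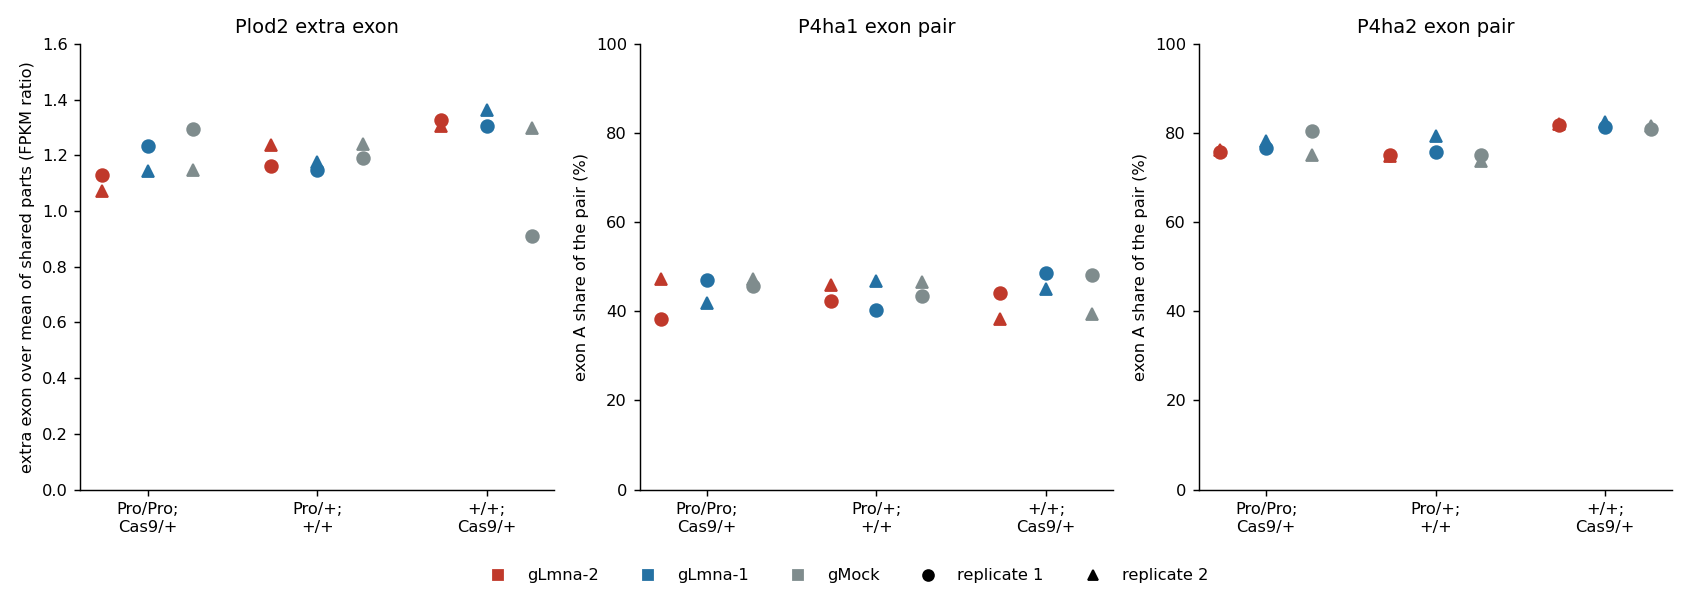
Alternative exons in each library by genotype and guide: the extra exon of Plod2 as a ratio to shared parts, and exon A of P4ha1 and of P4ha2 as a percentage of its pair per base. Circles are replicate 1 and triangles replicate 2. P4ha2 lies at 81.0% or above in wild-type libraries and at 80.4% or below in the others. The nearest libraries on either side cannot be told apart by their reads.

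Partners of these enzymes were read from a list of 23 genes, of which 21 were tested. For gLmna-2 against gLmna-1 in homozygous cells, 5 fell and 1 rose, Tll1, a procollagen protease, with a change of 0.55 (limma, adjusted p = 0.034). Tll1 was near the floor, at 2.03 and 1.33 FPKM under gLmna-2, against 1.19 and 0.515 under gLmna-1. The list's median was -0.12, beside 0.06 over all genes, of which 3.02% were called lower and 6.92% higher. Serpinh1, the collagen chaperone HSP47, had 714 and 644 FPKM under gLmna-2, against 1139.6 and 1005 under gLmna-1 (change -0.66, adjusted p = 0.011). P4hb, the beta subunit that pairs with P4ha1 and P4ha2, had 710.5 and 675 FPKM under gLmna-2, against 978 and 894 under gLmna-1 (change -0.43, adjusted p = 0.018). P4ha3, a further alpha subunit, changed by -0.47 (adjusted p = 0.023).

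Of 16 tested fibrillar collagens and elastic fibre genes, the substrates, 5 fell and none rose, beside 3.02% and 6.92% of all genes. The list median was -0.47, with 15 changes negative and 1 positive. Col3a1, of type III collagen, had 314 and 116 FPKM under gLmna-2, against 531 and 462 under gLmna-1 (change -1.37, limma adjusted p = 0.022). Col11a1, a minor fibril collagen, had 18.2 and 17.3 FPKM under gLmna-2, against 54.9 and 48.6 under gLmna-1 (change -1.49, adjusted p = 0.0034). Col5a2 and Efemp2, the fibulin that binds Lox, changed by -0.74 (adjusted p = 0.019) and -0.45 (adjusted p = 0.024). Eln and Mfap4 were under 1 FPKM in every library, so that RNA of elastin, a substrate of Lox and Loxl1, was at the floor in these cultures. Both lists had no gene past the threshold for the same guides in heterozygous or wild-type cells, where the background was 0%.

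Hypoxia-inducible factor (HIF) is a known activator of Lox, Plod2, P4ha1 and P4ha2, and transforming growth factor beta of several matrix genes. Of 24 HIF target genes, 1 fell, Mif, with a change of -0.57 (limma, adjusted p = 0.018), and none rose. The share of calls, 1 in 24, is near the 3.02% of all genes called lower. The list median was -0.31, beside 0.06 over all genes, with 18 changes negative and 6 positive. A part of HIF in the members' changes was not tested. Of 12 TGF-beta target genes, none fell and 2 rose, Pmepa1 by 0.67 (adjusted p = 0.0082) and Tgfb1 by 0.79 (adjusted p = 0.018), with a list median of 0.37, beside 6.92% of all genes called higher. P4ha1 and P4ha2 are shown with their annotated promoters, 250 bases before to 50 after the start, from RefSeq on GRCm38.p6 (chr10:59323046-59323345 and chr11:54100674-54100973, plus strand). Capitals mark the core motif of HIF binding, ACGTG or GCGTG on either strand.
P4ha1 promoter: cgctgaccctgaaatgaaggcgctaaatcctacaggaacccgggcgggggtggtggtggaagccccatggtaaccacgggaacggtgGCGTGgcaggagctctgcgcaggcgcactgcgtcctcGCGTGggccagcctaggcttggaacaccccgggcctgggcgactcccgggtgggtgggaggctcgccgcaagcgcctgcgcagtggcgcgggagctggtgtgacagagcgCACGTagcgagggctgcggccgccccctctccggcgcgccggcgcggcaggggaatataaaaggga
P4ha2 promoter: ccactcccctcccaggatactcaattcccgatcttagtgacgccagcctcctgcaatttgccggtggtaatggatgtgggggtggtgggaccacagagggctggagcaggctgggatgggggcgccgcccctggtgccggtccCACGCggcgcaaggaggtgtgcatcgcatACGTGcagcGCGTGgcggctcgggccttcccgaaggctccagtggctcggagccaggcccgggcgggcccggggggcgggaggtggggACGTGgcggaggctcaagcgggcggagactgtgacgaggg

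The motif stands at 3 positions in the P4ha1 window and at 4 in that of P4ha2. The other members with a promoter in the table had 4 (Plod3), 2 (Plod1) and 1 (Loxl4), so that the count did not set P4ha1 and P4ha2 apart from Plod3. At least 1 position is found in 43.8% of all 32851 promoters of the same length, and at least 3 in 8.9%. Promoters were matched for these 5 of the 10 members. A match describes these letters and no binding. The P4ha2 exon that begins at the annotated start had a mean of 0.0634 FPKM over the 18 libraries. The next part of the transcript, at chr11:54101520-54101647, had 46.7 FPKM. The 4 positions of P4ha2 therefore belong to an annotated start whose exon was hardly read. The exon at the P4ha1 start had 2.66 FPKM and its next part 34.2 FPKM.

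Likeness of pattern was measured as the Pearson correlation of log2 values over the 18 libraries after each mouse's mean was taken out, a description that the guides and shared mice shape. Closest to Lox were Dkk3 (r = 0.952), Hif1a (0.951) and Cnnm2 (0.942), and closest to Plod1 was Col3a1 (0.955). Loxl2 was most like Casp6 and Ccdc80 (both 0.964), with P4ha2 next (0.933), the 1 case in which a member was among another member's closest 3. Loxl1 was most like Thbs4 (0.949), P4ha1 like Cnnm2 (0.951) and P4ha2 like Grhpr (0.948). Plod2 was closest to B430319G15Rik (0.953), Plod3 to Adgrg2 (0.916), Loxl3 to Dok1 (0.962) and Loxl4 to Kctd9 (0.901). Loxl3 ran against 8 of the other 9 members, most against Lox (r = -0.913).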

How the data were processed

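HOMER gave the deposited FPKM values over exons, and per the file headers each transcript was split into parts (404759 parts of 36795 transcripts). FastQC 0.11.2, STAR 2.4.0k and mm10 are named in the submitters' processing notes. The lengths of parts, in bases, were taken as deposited. RNA was isolated without DNase, per the labels. Of 24 library columns, 6 had a name of no sample here and stayed out.

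Parts were averaged by length into transcripts, although rows of genes had been assumed. RefSeq named 36474 transcripts and GENCODE 194, and 127 had no symbol. Each symbol kept its transcript with the highest mean. Steps of the values gave whole reads (100% within 0.05), from which depth was taken.

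Tests used limma 3.58.1 in R 4.3.3 (linear fit, empirical Bayes with a trend) on log2(FPKM + 1), a scale that understates changes of low genes. The filter was 1 FPKM or more in 2 or more libraries, which left 12599 genes for Benjamini-Hochberg adjustment, with a threshold of 0.05. Guides were compared over all 18 libraries with the mouse as a block (6 residual degrees of freedom), genotypes over the 6 gMock libraries (3). The guides went into cells of the same mouse, as the sample names show. With group means taken out, libraries of a mouse correlated at -0.02 to 0.78 in Pro/Pro;Cas9/+, 0.47 to 0.73 in Pro/+; +/+ and 0.18 to 0.59 in +/+;Cas9/+. With 2 mice for each genotype, p-values measure the spread of few animals. In the guide fits a gene's spread was shared by all genotypes, so its SE was the same in each. For Lox, gLmna-2 against gLmna-1, that SE was 0.235. The differences of the mice were -0.54 and -1.47 in Pro/Pro;Cas9/+, 0.06 and 0.01 in Pro/+; +/+, and -0.15 and -0.16 in +/+;Cas9/+. Fits were run on simulated data in which a gene had the same spread in every genotype. Such data cannot show how unequal spread or single libraries affect the calls. Tables and figures used Python 3.11.15, pandas 2.3.3 and matplotlib 3.10.9.

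Members and lists were chosen with earlier results of these data known. Genes named are the members, Lmna, up to 4 genes of each list with the smallest p, and the 3 genes most like each member. Alternatives were no block, or a block of replicate number for genotypes, another pseudocount (0.1 FPKM), no filter, the longest transcript, quantile normalization, limma voom on recovered reads, fewer libraries in the fit, mouse means, each library left out, and parts without an opposite-strand gene.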

Additional observations from a re-analysis of the deposited data

How the results depend on the processing

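For gLmna-2 against gLmna-1 in Pro/Pro;Cas9/+, 9 members passed, beside 9.95% of all genes. There were 4 calls with no filter on low values, 4 with quantile normalization, 0 with no replicate block and 0 with only the compared genotype in the fit, and 0 to 10 when 1 library was left out. The 9 calls also came with a pseudocount of 0.1, the longest transcript, limma voom and parts free of opposite-strand genes. For these fits and the one with no filter, the share of all genes called is not given here. Their counts therefore have no background beside them. Every log2 change of the 9 kept its sign under all of the alternatives named here. Without the filter, more genes entered both the fit and the adjustment. A fit of only the compared genotype leaves fewer libraries and takes the spread from that genotype alone. Why the counts changed was not tested for any of these alternatives. For gLmna-1 against gMock in Pro/Pro;Cas9/+, the 1 call became 0 with no replicate block, no filter, quantile normalization or only the compared genotype, and 0 to 8 when 1 library was left out. Both guides against gMock in Pro/Pro;Cas9/+ gave 0 to 1 call, and the guide difference against Pro/+; +/+ 0 to 9 and against +/+;Cas9/+ 0 to 4, when 1 library was left out. For Pro/+; +/+ against +/+;Cas9/+ the mean of the 3 libraries of each mouse gave 2 calls.

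Signs turned for members that had not passed. In Pro/+; +/+ against +/+;Cas9/+, Loxl4 was -0.021 and Plod3 0.09 with mouse means, and Plod3 0.10 with quantile normalization. With 1 library left out, Loxl4 ran from -0.185 to 0.627 for gLmna-2 against gLmna-1 in Pro/Pro;Cas9/+. For gLmna-1 against gMock there, Lox ran from -0.087 to 0.986, Loxl3 from -0.998 to 0.076 and Plod2 from -0.228 to 0.439. Plod3 ran from -0.03 to 0.109 for Pro/Pro;Cas9/+ against +/+;Cas9/+. For Pro/+; +/+ against +/+;Cas9/+, Loxl1 ran from -0.732 to 0.133, Loxl4 from -0.134 to 0.33 and Plod3 from -0.074 to 0.065. A block of replicate number changed no genotype call of a member.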
